A study of Arabidopsis thaliana with 12 samples.

Results

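This account describes what abscisic acid (ABA) did to gene expression in Arabidopsis seedlings that also received the synthetic compound DFPM, whose full name in the labels joins a dichlorophenyl group, a furan ring and a piperidine. It rests on the 3 arrays of seedlings given ABA and DFPM (ABA+DFPM) and the 3 arrays of seedlings given DFPM, chosen by their titles, which are 6 of the 12 arrays in the series. The other 6 arrays, ABA and control, show what the hormone did when no DFPM was given. All 4 groups were whole Col-0 seedlings, 12 days old, raised on plates and moved to 6-well plates for treatment. ABA+DFPM seedlings received 30 µM DFPM 30 min ahead of 10 µM ABA and 6 h is the stated treatment time, and DFPM seedlings received 30 µM DFPM for 6 h. ABA seedlings received 10 µM ABA for 6 h, and control seedlings received DMSO diluted 1 in 5000 in water, with no time stated. DMSO is named for the control group alone, and the DFPM label also carries the remark on timing ahead of ABA. The labels do not state that arrays within a group are from separate cultures, so p-values here reflect the spread between these samples alone, and that spread may be technical.

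ABA is the plant hormone of drought, cold and seed dormancy. Receptors of the PYR/PYL family that have bound it inhibit PP2C phosphatases, which frees SnRK2 kinases to switch on transcription factors and, through them, genes of stress protection such as those for late embryogenesis abundant (LEA) proteins and dehydrins, which are small hydrophilic proteins that accumulate in drying cells. DFPM is known from a chemical screen as a small molecule that weakens ABA responses in seedlings by way of immune signalling. The comparison therefore addresses which ABA responses still occurred when DFPM was present.

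Values are the deposited log2 GCRMA levels per probe set, so a difference of 1 is a doubling of the signal on the deposited scale, and levels of about log2 2 to 3 lie at the background of the array. A difference is given ± SE from limma with 3 arrays a group, and it counts as a rise or fall where the Benjamini-Hochberg adjusted p over 14401 probe sets is below 0.05. Levels are compared between groups for 1 probe set at a time and never between genes. A listed gene is called measured where 1 of the 14401 probe sets named it and no other gene. A gene that was not measured in this sense may still be on the array under a probe set that is unnamed here. In whole seedlings, fewer cells of a type and less RNA per cell cannot be told apart.

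Within every group, array numbers 1 and 2 resembled each other (r from 0.987 to 0.992) more than either resembled number 3 (r from 0.875 to 0.920). The control probe sets for RNA integrity gave no single direction between the groups. The 3' minus 5' difference of the ubiquitin control probe sets was 0.73 to 0.97 in ABA+DFPM arrays and 1.04 to 1.25 in DFPM arrays, and that of actin was 4.27 to 4.68 and 4.86 to 5.05. For GAPDH these ranges overlapped, at 1.05 to 1.27 in ABA+DFPM arrays and 0.91 to 1.22 in DFPM arrays. The GAPDH mean was higher in ABA+DFPM (1.16) than in DFPM arrays (1.05), opposite to ubiquitin and actin. The part of these differences in the results was not tested. Of the cell type markers, 2 of 10 root genes, 1 of 10 guard cell genes and 2 of 6 mesophyll genes were measured. Of these 5, 0 passed the test, beside 14.2% of all probe sets, so the count is too small to show that the cell types were unchanged. Without the arrays numbered 3, RCA was called lower (-0.64, limma adjusted p = 0.012), as were 29.5% of all probe sets. The log2 summed level of the root genes EXPA7 and EXPA18 was 5.16 to 6.85 in ABA+DFPM arrays and 6.34 to 6.86 in DFPM arrays. For the guard cell gene FMA (FAMA) the level was 4.09 to 7.15 in ABA+DFPM arrays and 5.18 to 7.09 in DFPM arrays. For the mesophyll genes RCA and LHCB4.1 the sum was 10.4 to 13.2 in ABA+DFPM arrays and 10.5 to 13.5 in DFPM arrays, so the seedling's leaf signal was plain in both groups.

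ABA still changed expression broadly in DFPM-treated seedlings, and nearly always in the direction it took without DFPM. The stress-protection genes LEA4-5, LEA18 and COR15A were among those that rose most. Of the 7 measured genes of pattern-triggered immunity 3 fell (6.19% of all probe sets did): EFR, PUB22 and BIK1. The calls of PUB22 and BIK1 were lost when single arrays were left out. In all, 2049 of 14401 probe sets (14.2%) passed between ABA+DFPM and DFPM, 1158 higher (8.04%) and 891 lower (6.19%). With the replicate number as a block the count was 5069 (35.2%), 2331 higher (16.2%) and 2738 lower (19.0%). Between ABA and control 4165 probe sets passed (28.9%), 2099 higher (14.6%) and 2066 lower (14.3%), or 6982 with the block (48.5%; 22.1% higher and 26.4% lower). Without ABA+DFPM array 1 or 2 the count with DFPM was 806 or 914, without DFPM array 1 or 2 it was 959 or 925, and without ABA+DFPM array 3 it was 3246. The count between ABA and control was 2402, 2676 and 2746 without ABA array 1 or 2 or control array 2. The arrays of ABA+DFPM lay wholly above or wholly below those of DFPM for 4687 probe sets (32.5%), above for 15.6% and below for 17%.

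Of the 2099 probe sets that ABA raised without DFPM, 1044 (49.7%) also rose with DFPM, against 8.04% of all probe sets. Their median change was 1.07 with DFPM and 1.61 without, and 2042 of them lay above 0 with DFPM. Over all probe sets 44.3% lay above 0 and 55.7% below, and the median change was -0.09. Of the 2066 probe sets that ABA lowered without DFPM, 702 (34.0%) also fell with DFPM, against 6.19% of all probe sets. Their median change was -0.87 with DFPM and -1.30 without, and 2013 lay below 0. With the block 2021 of the probe sets raised without DFPM also rose with it, and 2214 of those lowered also fell. Leaving out ABA+DFPM array 1 or 2 or DFPM array 1 or 2 brought the first count to 529, 580, 619 and 579 and the second to 217, 261, 247 and 259. Without ABA+DFPM array 3 the second count was 1232, and it was 436, 426 and 442 without ABA array 1 or 2 or control array 2. No array was shared between the comparisons with and without DFPM.

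**Figure D1:**
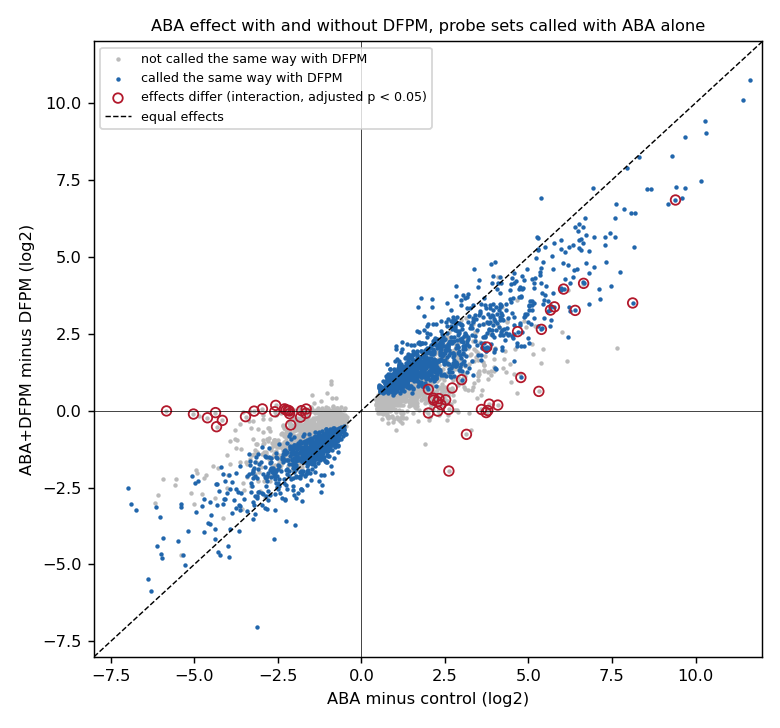
Log2 change of ABA+DFPM minus DFPM (vertical axis) against that of ABA minus control (horizontal axis) for the 4165 probe sets called without DFPM, with blue points for those called the same way with DFPM (1746) and the dashed line of equal change. Of the 4165, 4055 kept their sign with DFPM, and red circles mark the 52 whose changes differed by the interaction test.

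The larger the ABA response without DFPM, the more often it was also called with DFPM. A larger change is also easier to call, so these shares do not give the part of the responses that was lost. Among probe sets that ABA raised by at most 1 on the log2 scale 143 of 499 (28.7%) also rose with DFPM. Between 1 and 2 the count was 373 of 796 (46.9%), between 2 and 4 it was 329 of 574 (57.3%), and above 4 it was 199 of 230 (86.5%). Those 230 had a median change of 3.62 with DFPM and 5.17 without, and 222 of them changed less with DFPM. For probe sets that ABA lowered the shares in the same bands were 156 of 608 (25.7%), 335 of 1003 (33.4%), 168 of 386 (43.5%) and 43 of 69 (62.3%). The 69 in the last band all stayed below 0 with DFPM, at a median of -2.86 against -4.77 without. The share that kept its sign with DFPM was high in every band, from the smallest changes to the largest. It was 95%, 97.6%, 97.7% and 100% for probe sets that ABA raised, and 96.7%, 97.5%, 97.9% and 100% for those it lowered.

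Choosing probe sets by the change without DFPM favours large values there, so the reverse choice was also made. Of the 1158 probe sets that rose with DFPM, 1044 (90.2%) also rose without it, with a median change of 1.51 with DFPM and 1.84 without. Of the 891 that fell with DFPM, 702 (78.8%) also fell without it, with a median of -1.22 in both. All 99 probe sets that rose by more than 4 with DFPM also rose without it, and of 19 that fell by more than 4 with DFPM, 16 also fell without it. The gap between the arrays numbered 1 and 2 and those numbered 3 was seen here as well. Among probe sets raised by ABA without DFPM, the median change with DFPM was 1.18, 1.14 and 0.74 in array numbers 1, 2 and 3, and among those lowered it was -1.12, -0.97 and -0.50. In number 3, 93.0% of the raised probe sets still lay above 0 and 92.0% of the lowered ones below 0. When the test used numbers 1 and 2 alone it called 7364 probe sets, and number 3 gave the same sign for 90.1% of these and for 77.1% of all probe sets.

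The 15 largest rises of named genes all passed in the ABA and control arrays too, and all 15 were smaller with DFPM. For 1 of them the difference passed the interaction test, or for 4 with the block. Every interaction call described here was lost, however, when numbers 1 and 2 were averaged before the block was fitted, a setting that called 0 probe sets. The DFPM mean was under log2 4 in 12 of the 15, a range that the correction for background governs, so the folds of these are rougher than their directions. The gene at the top was AT3G02480. Its levels were 13.60, 13.53 and 13.56 in ABA+DFPM arrays, against 3.60, 3.40 and 3.46 in DFPM arrays. All ABA+DFPM arrays stood far above all DFPM arrays. The change of 10.08 ± 0.18 was about 1083-fold (adjusted p = 9.28e-10), and without DFPM it was 11.42. The difference between these changes, -1.34 ± 0.26, did not pass (adjusted p = 0.0661, or 0.0310 with the block).

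LEA4-5 (AT5G06760), which encodes a LEA protein, followed. Its levels were 10.75, 9.92 and 10.59 in ABA+DFPM arrays, against 2.14, 2.17 and 2.14 in DFPM arrays. A gene at background in every DFPM array thus became well expressed in every ABA+DFPM array. It rose by 8.27 ± 0.29 or 309-fold (adjusted p = 2.63e-07), against 9.29 without DFPM. A second LEA gene, LEA18 (AT2G35300), had levels of 10.41, 9.67 and 7.71 in ABA+DFPM arrays, against 2.67, 2.71 and 2.71 in DFPM arrays. It rose by 6.56 ± 0.64 (adjusted p = 1.51e-04), with array number 3 the lowest of the ABA+DFPM arrays, and by 7.85 without DFPM.

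SAG29 (AT5G13170, SWEET15), a sugar exporter that rises in ageing leaves, had levels of 11.00, 10.19 and 8.75 in ABA+DFPM arrays, against 2.83, 2.85 and 2.55 in DFPM arrays. The groups lay far apart, with array number 3 the lowest of each. The rise was 7.24 ± 0.51 (adjusted p = 1.79e-05) and 9.68 without DFPM. EXPA16 (AT3G55500), an expansin that loosens cell walls, had levels of 12.22, 12.02 and 10.21 in ABA+DFPM arrays, against 6.05, 6.65 and 2.53 in DFPM arrays. It rose by 6.41 ± 1.03 (adjusted p = 0.00308), against 8.19 without DFPM, and array number 3 was again the lowest in both groups. The other genes in this set carry locus names only. AT3G17520 rose by 6.85 with DFPM and 9.40 without, AT3G15670 by 6.41 and 8.07, and AT1G24600 by 5.65 and 7.28. Nearly equal rises with and without DFPM were those of AT2G41190 (8.23 and 8.31), AT1G49450 (7.90 and 7.94) and AT1G69480 (5.45 and 5.77). AT2G25625, AT5G66780 and AT3G48510 rose by 6.07, 5.98 and 5.63 with DFPM and by 6.52, 6.39 and 6.97 without.

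**Figure D2:**
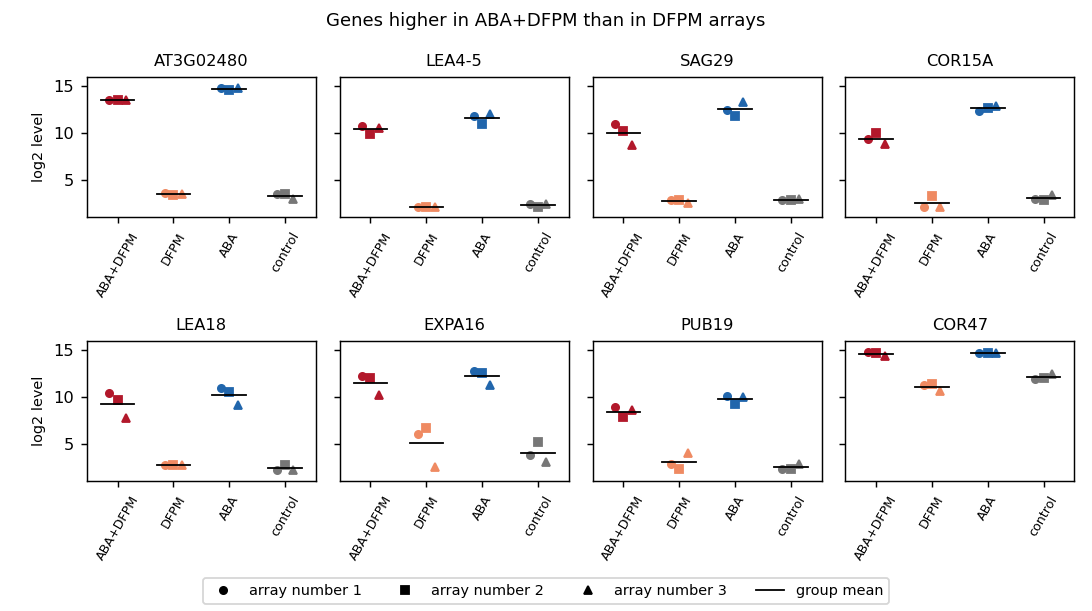
Log2 levels of 8 genes that rose in ABA+DFPM against DFPM seedlings, with 1 marker per array (shape gives the array number) and a bar at each group mean of 3 arrays. Every ABA+DFPM array lies above every DFPM array of its gene, and in all 8 genes the mean of the ABA arrays is above that of the ABA+DFPM arrays, by least in COR47 (14.59 in ABA+DFPM and 14.67 in ABA arrays).

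Most measured genes of the classical ABA-inducible stress list rose with ABA in the presence of DFPM. Of 24 listed, 5 were measured, and 4 of these rose and 0 fell, with a median change of 3.51 against -0.09 over all probe sets. Without DFPM 4 rose as well, with a median of 3.82. The shares to set beside this and later lists are 8.04% higher and 6.19% lower over all probe sets with DFPM. With the block they are 16.2% and 19.0%, and without DFPM 14.6% and 14.3%. COR15A (AT2G42540), a chloroplast protein that shields membranes in the cold, had levels of 9.44, 9.99 and 8.87 in ABA+DFPM arrays, against 2.14, 3.25 and 2.14 in DFPM arrays. It rose by 6.93 ± 0.36 or 122-fold (adjusted p = 1.89e-06), against 9.60 without DFPM, a difference of -2.68 ± 0.51 that did not pass (adjusted p = 0.0641, or 0.0315 with the block, a call lost with numbers 1 and 2 averaged). Its neighbour COR15B (AT2G42530) had levels of 7.88, 8.26 and 6.73 in ABA+DFPM arrays, against 3.35, 3.07 and 3.34 in DFPM arrays. For COR15B the rise was 4.37 ± 0.39 with DFPM (adjusted p = 8.73e-05) and 3.94 without. Its means were 7.62 in ABA+DFPM and 3.25 in DFPM arrays, against 9.30 in ABA and 5.36 in control arrays. The similar rise thus ran between lower levels with DFPM.

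The dehydrin genes of this list started from a high level. COR47 (AT1G20440) had levels of 14.77, 14.68 and 14.33 in ABA+DFPM arrays, against 11.28, 11.37 and 10.59 in DFPM arrays. It rose by 3.51 ± 0.24 (adjusted p = 1.21e-05), against 2.56 without DFPM, and the difference did not pass (adjusted p = 0.496). LTI30 (AT3G50970) had levels of 14.33, 14.16 and 14.84 in ABA+DFPM arrays, against 11.40, 11.18 and 12.23 in DFPM arrays, and rose by 2.84 ± 0.53 (adjusted p = 0.00749). The means where ABA was given were 14.59 in ABA+DFPM and 14.67 in ABA arrays for COR47, and 14.44 in ABA+DFPM and 14.69 in ABA arrays for LTI30. Without ABA they were 11.1 in DFPM and 12.1 in control arrays for COR47, and 11.6 in DFPM and 10.9 in control arrays for LTI30. XERICO, a small zinc finger protein that raises ABA content when overexpressed, gave 0.45 ± 0.52 with DFPM (adjusted p = 0.616, or 0.0472 with the block).

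Of 14 listed LEA and dehydrin genes outside that list 6 were measured. This list is not the whole family: AT3G02480, AT3G17520 and AT3G15670 were not on it, so its counts cover the listed genes alone. LEA4-5 and LEA18 rose, 0 fell, and the median change was 0.63, while without DFPM 3 rose with a median of 1.60. With the block 3 rose and 1 fell. The gene called only without DFPM was AtLEA4-1. Its levels were 4.67, 3.32 and 3.83 in ABA+DFPM arrays, against 2.84, 3.15 and 2.90 in DFPM arrays. These groups did not overlap but lay close, with a change of 0.98 ± 0.38 (adjusted p = 0.115, or 0.0486 with the block) against 2.95 without DFPM, and the difference between the changes did not pass (adjusted p = 0.255). AT2G44060 (LEA26) gave 0.29, the dehydrin gene AT1G54410 (HIRD11) 0.06 and AT2G46140 (LEA27) -0.83 (adjusted p = 0.503, or 0.0354 with the block).

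Sugar transport genes moved in both directions. Of 49 listed 9 were measured, and 3 rose and 1 fell with DFPM, with a median of 0.13, against 4 and 1 without DFPM. Beside SAG29, SWEET4 (AT3G28007), a sugar transporter of the plasma membrane, had levels of 6.51, 7.05 and 5.82 in ABA+DFPM arrays, against 2.87, 2.43 and 2.60 in DFPM arrays. It rose by 3.83 ± 0.36 (adjusted p = 1.21e-04), and by 5.40 without DFPM. SFP1, a sugar porter of senescing leaves, rose by 1.96 ± 0.23 (adjusted p = 5.10e-04), about the 1.90 seen without DFPM. SWEET17, a fructose transporter of the vacuole, fell by 1.04 (adjusted p = 0.0362), but this call was lost without any 1 of 9 arrays (adjusted p 0.0527 to 0.134). SWEET2 gave 1.51 (adjusted p = 0.167, or 0.0438 with the block) and SWEET16 -1.87 (adjusted p = 0.0803, or 0.00473 with the block).

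Expansins loosen cell walls during growth. Of 38 listed 9 were measured, and with DFPM EXPA16 rose and EXPA9 fell (-2.02 ± 0.29, adjusted p = 0.00152), with a median of 0.07. Without DFPM 5 rose and 1 fell, with a median of 2.46. EXLA2 had levels of 3.20, 3.33 and 4.01 in ABA+DFPM arrays, against 3.06, 3.06 and 3.06 in DFPM arrays, all near background. The change of EXLA2 was 0.45 with DFPM and 2.46 without, a difference of -2.01 ± 0.37 that did not pass (adjusted p = 0.0550, or 0.0226 with the block). EXLB1 had levels of 10.43, 10.50 and 11.65 in ABA+DFPM arrays, against 10.82, 10.91 and 10.79 in DFPM arrays, which overlap. The EXLB1 means were 10.86 in ABA+DFPM and 10.84 in DFPM arrays, against 11.6 in ABA and 8.78 in control arrays. DFPM arrays thus lay above control arrays without ABA. Its change was 0.02 with DFPM and 2.85 without, and the difference of -2.83 ± 0.62 did not pass either (adjusted p = 0.114, or 0.0155 with the block). Both calls gained with the block were lost with numbers 1 and 2 averaged. EXLA1 (2.54 with DFPM and 2.61 without) and EXPA4 (1.62 and 2.48) were called without DFPM but not with it, at adjusted p = 0.0696 (0.00112 with the block) and 0.192. The calls without DFPM were themselves lost without any 1 of 6 arrays for EXLA1 (adjusted p = 0.0406, or 0.0527 to 0.121 without those arrays) and any 1 of 5 for EXPA4 (0.0369, or 0.0510 to 0.135). Xyloglucan endotransglucosylase genes, which remodel the same wall, had 6 of 32 measured and 0 called, or 3 higher with the block.

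Among genes of protein turnover, PUB19 (AT1G60190), a U-box ubiquitin ligase that restrains drought responses, had levels of 8.87, 7.79 and 8.55 in ABA+DFPM arrays, against 2.82, 2.32 and 3.97 in DFPM arrays. It rose by 5.37 ± 0.44 (adjusted p = 4.50e-05), against 7.30 without DFPM. In the U-box family 6 of 23 genes were measured, with 2 higher (PUB19 and PUB43) and 1 lower (PUB22, described with the immune genes). PUB43 rose by 0.96 ± 0.23 (adjusted p = 0.0224), a call lost without ABA+DFPM array 1 or 2 or DFPM array 1 or 2 (adjusted p 0.0536 to 0.0917).

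Autophagy proteins enclose and recycle cell contents. Of 27 listed genes 9 were measured. All 9 lay above 0 (44.3% of all probe sets did) and 5 rose (8.04% of all), with a median of 0.68, against -0.09 over all probe sets. With the block 8 rose (16.2% of all). Without DFPM 5 rose with a median of 0.85. ATG8H (AT3G06420), one of the ubiquitin-like ATG8 proteins that coat the autophagosome, had levels of 11.87, 11.85 and 11.46 in ABA+DFPM arrays, against 10.14, 10.17 and 10.36 in DFPM arrays. The groups were clearly apart, with a rise of 1.5 ± 0.18 or 2.84-fold (adjusted p = 5.31e-04) and of 2.23 without DFPM. ATG8B rose by 1.38 ± 0.27 (adjusted p = 0.00977) and APG8A (ATG8A) by 1.13 ± 0.19 (adjusted p = 0.00399). Single arrays ended the remaining calls: that of ATG8G (0.68, adjusted p = 0.0206) without ABA+DFPM array 1 or 2 or DFPM array 2 (0.0643 to 0.0867), and that of AT5G66930 (ATG101, 0.62, adjusted p = 0.0471) without any 1 of 10 arrays (0.0535 to 0.162).

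The 15 largest falls of named genes had the same sign without DFPM in every case, and 13 passed there too. In 7 of the 15 the change was smaller with DFPM. The ABA+DFPM mean was under log2 4 in 9 of them. AT3G03670 had levels of 2.41, 2.14 and 4.55 in ABA+DFPM arrays, against 9.16, 8.84 and 12.20 in DFPM arrays. Array number 3 was the highest in both groups, and the groups lay far apart. It fell by 7.04 ± 1.02 on the log2 scale, or 131-fold (adjusted p = 0.00182), while the change without DFPM was -3.13. The difference between the changes was -3.90 ± 1.45 and did not pass (adjusted p = 0.570).

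UGT72E1 (AT3G50740), a glycosyltransferase that acts on lignin precursors, had levels of 3.87, 4.00 and 3.98 in ABA+DFPM arrays, against 10.03, 9.82 and 8.44 in DFPM arrays. All ABA+DFPM arrays lay far below all DFPM arrays. It fell by 5.48 ± 0.40 (adjusted p = 1.92e-05), against a change of -6.38 without DFPM. SBT4.12 (AT5G59090), a subtilisin-like protease, had levels of 3.38, 3.67 and 4.56 in ABA+DFPM arrays, against 7.37, 7.56 and 7.72 in DFPM arrays. Its change was -3.68 ± 0.40 with DFPM (adjusted p = 3.03e-04) and -4.54 without. AT5G28630 had levels of 3.76, 3.83 and 3.82 in ABA+DFPM arrays, against 8.05, 7.96 and 9.21 in DFPM arrays, a change of -4.60 ± 0.31 (adjusted p = 1.11e-05) that was -4.29 without DFPM. AT4G21870 had levels of 3.64, 3.78 and 2.95 in ABA+DFPM arrays, against 8.69, 8.58 and 7.09 in DFPM arrays, a change of -4.66 ± 0.63 (adjusted p = 0.00117) and of -6.0 without DFPM.

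Further falls came from genes named by locus alone. AT1G06830 changed by -4.18 with DFPM and -2.60 without, AT3G21080 by -3.59 and -2.25, AT4G11290 by -3.86 and -4.38, and AT1G49570 by -3.84 and -3.94. AT5G04310 changed by -3.72 on 1 probe set and -3.28 on its other one, and AT1G66940 by -3.46 with DFPM and -6.04 without. AT2G43140 changed by -4.25 (adjusted p = 0.0152), a call lost without ABA+DFPM array 1 or 2 (0.0599 to 0.0696). AT4G08780 changed by -3.92 (adjusted p = 0.0257), a call lost without ABA+DFPM array 1 or 2 or any DFPM array (0.0568 to 0.105). The peroxidase gene Prx37, next to AT4G08780 in the annotation, gave -2.40 ± 1.18 (adjusted p = 0.204, or 0.00998 with the block) against -5.59 without DFPM.

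**Figure D3:**
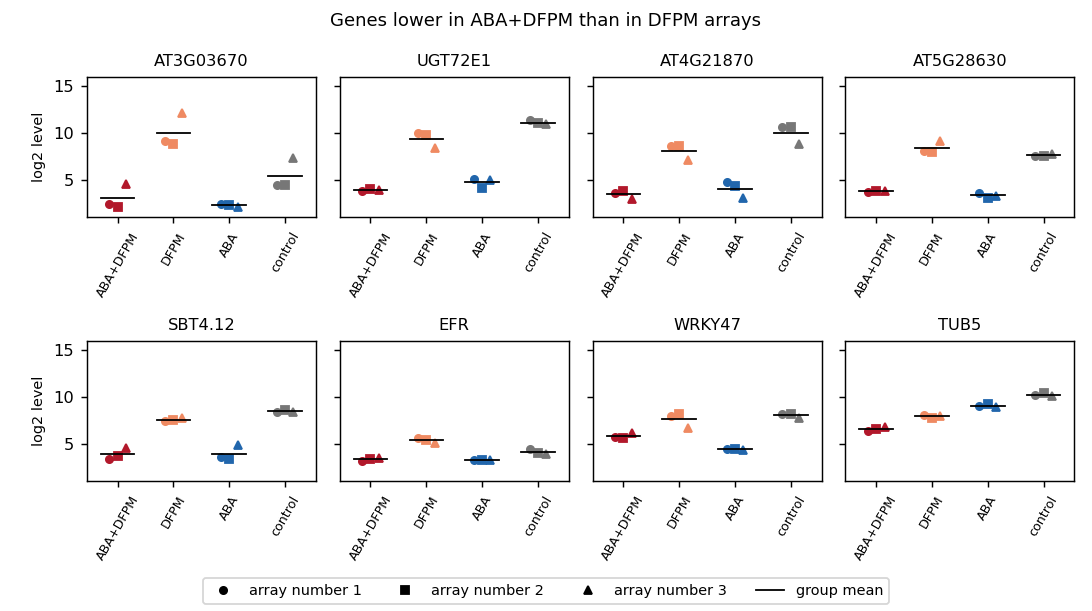
Log2 levels of 8 genes that fell in ABA+DFPM against DFPM seedlings, with 1 marker per array (shape gives the array number) and a bar at each group mean of 3 arrays. Every ABA+DFPM array lies below every DFPM array of its gene, and the means of UGT72E1, for example, were 3.95 in ABA+DFPM, 9.43 in DFPM, 4.77 in ABA and 11.15 in control arrays.

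The genes that ABA lowered most without DFPM were set beside these. Of the 10 steepest, 8 also fell with DFPM, by changes from -5.48 to -3.04, and all 10 changed less with DFPM. Choosing genes by their change without DFPM favours large values there, so this count does not measure a weakening. Of the 69 probe sets that ABA lowered by more than 4 without DFPM, 67 (97.1%) changed less with it. AT5G48430 gave -3.04 with DFPM and -6.88 without, and the difference passed only with the block (adjusted p = 0.318, or 0.0180 with the block). AT3G23550 gave -3.14 and -6.14, with a difference that again passed only with the block (adjusted p = 0.0771, or 0.0388 with the block), and both calls were lost with numbers 1 and 2 averaged. AT2G17740 gave -3.23 and -6.75, and AT3G10120 -3.13 and -5.40. The fall of AT5G48430 with DFPM (adjusted p = 0.0321) was lost without any ABA+DFPM array or DFPM array 1 or 2 (0.0576 to 0.110), and that of AT2G17740 (adjusted p = 0.0122) without ABA+DFPM array 1 or 2 (0.0537 to 0.0579). The genes that missed the test with DFPM were Prx37 and AT5G62360 (-2.23, adjusted p = 0.153, or 0.0164 with the block). At the other end, the 10 steepest ABA rises all rose with DFPM too, by 5.32 to 10.08 against 7.94 to 11.42 without it. The smallest of them was AT1G09500, with 5.32 ± 0.73 with DFPM and 8.16 without.

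Pattern-triggered immunity is the response to conserved microbial molecules, and ABA lowered part of its measured genes in DFPM-treated seedlings. Of 19 listed 7 were measured. All 7 lay below 0 with DFPM (55.7% of all probe sets did), 3 fell (6.19% of all) and 0 rose, with a median of -1.21. Without DFPM all 7 fell (14.3% of all), with a median of -2.15. Of those 7 calls without DFPM, that of WRKY22 (adjusted p = 0.0461) was lost without any 1 of 9 arrays (0.0539 to 0.138) and that of WRKY53 (0.0328) without ABA array 1 or 2 or control array 1 or 3 (0.0948 to 0.125). EFR (AT5G20480), the receptor of a bacterial elongation factor, had levels of 3.16, 3.39 and 3.50 in ABA+DFPM arrays, against 5.61, 5.40 and 5.11 in DFPM arrays. The groups did not overlap. It fell by 2.02 ± 0.19 (adjusted p = 1.26e-04), and its change without DFPM was -0.87, a difference that did not pass (adjusted p = 0.155).

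The ubiquitin ligase gene PUB22, which dampens this immune response, had levels of 6.92, 6.87 and 8.52 in ABA+DFPM arrays, against 9.35, 9.46 and 9.10 in DFPM arrays. It fell by 1.86 ± 0.46 (adjusted p = 0.0263). BIK1, a cytoplasmic kinase that relays signals from immune receptors, had levels of 9.29, 9.24 and 10.05 in ABA+DFPM arrays, against 10.62, 10.68 and 10.92 in DFPM arrays, and fell by 1.21 ± 0.29 (adjusted p = 0.0222). The groups of both genes lay apart, with array number 3 the highest of the ABA+DFPM arrays. Both calls were lost without ABA+DFPM array 1 or 2 or DFPM array 1 or 2, with adjusted p from 0.0810 to 0.110 for PUB22 and from 0.0582 to 0.0923 for BIK1. PUB23, a close relative of PUB22, gave -1.15 (adjusted p = 0.113, or 0.0216 with the block), the transcription factor genes WRKY22 and WRKY53 gave -1.25 and -0.64, and AT1G51890 gave -0.93.

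Other defence genes were few among those measured. Both measured genes of salicylic acid immunity, of 11 listed, passed with the block only: SAG101, a partner of the immune regulator EDS1, gave -0.88 (adjusted p = 0.0545, or 0.0279 with the block) and the glutaredoxin gene GRX480 gave -1.23 (adjusted p = 0.548, or 0.0160 with the block). PDF1.2 (AT5G44420), a defensin gene used as a marker of jasmonate and ethylene signalling and the 1 measured of 12 jasmonate genes, had levels of 3.64, 4.42 and 5.63 in ABA+DFPM arrays, against 8.33, 7.73 and 6.87 in DFPM arrays. It fell by 3.08 ± 0.78 (adjusted p = 0.0276), close to its change of -2.97 without DFPM. This call was lost without ABA+DFPM array 1 or 2 or DFPM array 1 or 2 (adjusted p 0.0852 to 0.115).

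Chitinases attack fungal cell walls. ChiC (AT4G19810), 1 of 2 measured of 7 listed, had levels of 12.34, 12.35 and 12.56 in ABA+DFPM arrays, against 9.65, 9.51 and 9.63 in DFPM arrays. All arrays of each group lay within a narrow band, and it rose by 2.82 ± 0.59 (adjusted p = 0.0131), against 3.64 without DFPM. The other, CHI (AT2G43570), gave 2.01 ± 1.08 (adjusted p = 0.244, or 0.0239 with the block) and 5.44 without DFPM. Of 71 WRKY transcription factor genes 6 were measured and 1 fell, WRKY47 (AT4G01720). Its levels were 5.66, 5.62 and 6.11 in ABA+DFPM arrays, against 8.0, 8.11 and 6.71 in DFPM arrays, a change of -1.81 ± 0.34 (adjusted p = 0.00694) and of -3.63 without DFPM. Of 14 calmodulin-like calcium sensor genes 8 were measured and 1 fell, or 3 with the block. CML42 gave -2.39 ± 0.65 (adjusted p = 0.0363) and -4.30 without DFPM, and the call with DFPM was lost without any 1 of 8 arrays (0.0507 to 0.147). CML43 gave -2.14 (adjusted p = 0.0748, or 0.0231 with the block).

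UDP-glycosyltransferases, which attach sugars to hormones, flavonoids and foreign compounds, had the most measured members of the lists, 37 of 64. With DFPM 5 rose and 2 fell, beside 8.04% higher and 6.19% lower over all probe sets, and the median was 0.13. With the block 9 rose and 5 fell, beside 16.2% and 19.0% of all. Without DFPM 10 rose and 3 fell, and 5 and 1 of these calls were lost without single arrays. UGT71C5, which is known to glucosylate ABA, had levels of 7.61, 7.67 and 8.24 in ABA+DFPM arrays, against 9.24, 9.36 and 9.33 in DFPM arrays. It fell by 1.47 ± 0.22 (adjusted p = 0.00190), and its change without DFPM was -1.61. UGT71B6, a further ABA glucosyltransferase, gave -0.58 (adjusted p = 0.299). UGT76E12 had levels of 7.56, 7.77 and 7.63 in ABA+DFPM arrays, against 5.77, 4.36 and 6.25 in DFPM arrays, and rose by 2.19 ± 0.38 (adjusted p = 0.00494).

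Its relative UGT76E11 rose by 1.63 ± 0.32 (adjusted p = 0.00972), UGT76C1, a cytokinin glucosyltransferase, by 1.38 ± 0.27 (adjusted p = 0.00954), and UGT80B1, which acts on sterols, by 1.12 ± 0.24 (adjusted p = 0.0128). UGT87A2 rose by 0.80 ± 0.18 (adjusted p = 0.0186). The call of UGT80B1 was lost without ABA+DFPM array 1 or 2 (0.0553 to 0.0583) and that of UGT87A2 without ABA+DFPM array 1 or 2 or DFPM array 2 (0.0608 to 0.0785). Among tau-class glutathione transferases, which conjugate foreign compounds, 8 of 29 were measured and 0 passed with DFPM, or 3 higher and 1 lower with the block. GSTU22 gave 0.76 (adjusted p = 0.147, or 0.0379 with the block) with DFPM and 2.30 without. Its means were 9.35 in ABA+DFPM and 8.59 in DFPM arrays, against 6.49 in ABA and 4.19 in control arrays. Of 240 listed cytochrome P450 genes 11 were measured and 2 rose, CYP71B28 by 1.33 (adjusted p = 0.0102) and CYP71B26 by 1.51 (adjusted p = 0.0403). The first call was lost without ABA+DFPM array 1 (0.0507) and the second without any 1 of 6 arrays (0.0586 to 0.141).

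Of 41 auxin-response genes 4 were measured and 1 rose, or 2 with the block, which also called 1 lower. GH3.17 (AT1G28130), which inactivates auxin by joining it to an amino acid, had levels of 7.64, 7.20 and 7.63 in ABA+DFPM arrays, against 3.12, 3.12 and 5.06 in DFPM arrays. It rose by 3.73 ± 0.69 (adjusted p = 0.00693), while the change of 1.89 without DFPM did not pass (adjusted p = 0.0645, or 0.00666 with the block), and the difference between these changes did not pass either (adjusted p = 0.886). The GH3.17 means were 7.49 in ABA+DFPM and 3.76 in DFPM arrays, against 7.83 in ABA and 5.94 in control arrays. Its relatives differed in sign, with GH3.3 at -2.41 (adjusted p = 0.0676, or 0.0346 with the block) and WES1 (GH3.5) at 2.16 (adjusted p = 0.247, or 0.0144 with the block), while IAA18 gave 0.09. Of 15 tubulin genes 7 were measured and 1 fell with DFPM, against 3 without it, of which 2 were lost without single arrays. TUB5 (AT1G20010) had levels of 6.39, 6.61 and 6.76 in ABA+DFPM arrays, against 8.01, 7.73 and 7.96 in DFPM arrays, a change of -1.32 ± 0.17 (adjusted p = 8.72e-04) and of -1.19 without DFPM.

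Light-harvesting and photosystem genes did not pass with or without DFPM, with 8 of 53 measured, 0 called in either comparison and medians of -0.61 and -0.67. Without the arrays numbered 3, 5 of the 8 fell with DFPM (PSAN, PSBY, RCA, LHCB4.2 and LHCB4.3) and 0 rose, beside 29.5% lower and 21.6% higher over all probe sets. Levels differed widely between array numbers: RCA, which activates Rubisco, had levels of 11.43, 11.72 and 8.34 in ABA+DFPM arrays, against 12.07, 12.36 and 9.35 in DFPM arrays. Of 8 reference genes 4 were measured. PEX4 gave 0.23, AT4G34270 -0.25 and GAPC2 -0.63 (adjusted p = 0.156, or 0.0127 with the block), and AT2G28390 (MON1) rose by 0.56 (adjusted p = 0.0461), a call lost without any 1 of 10 arrays (0.0517 to 0.171). HVA22C gave -0.15, the 1 measured gene of 10 in that ABA- and stress-inducible family.

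**Figure D4:**
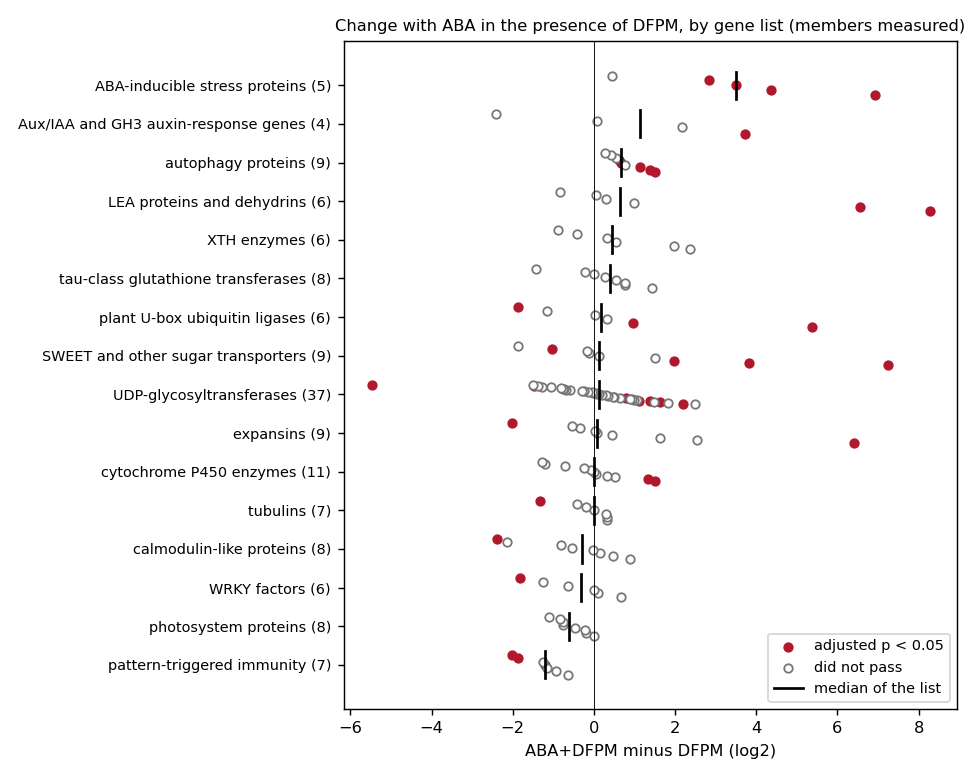
Log2 change of ABA+DFPM minus DFPM for each measured member of the larger gene lists, with filled points for called members, open points for the others, a bar at each list's median, and the number measured in parentheses. Members of the ABA-inducible stress list reach 6.93 and lie above 0, all 7 members of the immunity list lie below 0, and all 9 autophagy genes lie above 0.

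The interaction test asked directly whether the ABA change with DFPM differed from that without. It called 54 of 14401 probe sets (0.375%), or 202 (1.4%; 0.514% higher and 0.889% lower) with the block. It called 0 with numbers 1 and 2 averaged and the block, where 924 had an unadjusted p under 0.05, and 1251 without the arrays numbered 3. Of all probe sets 0.153% were called higher and 0.222% lower. At an unadjusted p below 0.05 there were 936 (6.5%). Of the 54, 31 were among those ABA raised without DFPM, and 13 of these still rose with DFPM. Another 21 were among those ABA lowered without DFPM, and 0 of these fell with DFPM. In 20 of those 21 the DFPM mean was itself under log2 4, a low level that leaves little room for a fall. The interaction test also selects changes that differ, so the counts of 13 and 0 cannot be set against each other. The count was 33 and 30 without DFPM array 1 or 2, 27 and 35 without ABA array 1 or 2, and 30 and 91 without control array 2 or 3.

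Some ABA rises were all but missing with DFPM. AT4G21650 had levels of 2.56, 2.59 and 2.18 in ABA+DFPM and 2.18, 2.43 and 2.18 in DFPM arrays, against 6.76, 6.61 and 6.44 in ABA and 2.28, 2.93 and 2.36 in control arrays. Its ABA change was 0.18 with DFPM and 4.08 without, a difference of -3.90 ± 0.30 (adjusted p = 5.26e-04). AT5G42290 had levels of 2.26, 2.29 and 2.41 in ABA+DFPM and 2.14, 2.14 and 2.88 in DFPM arrays, against 6.25, 5.37 and 6.03 in ABA and 2.14, 2.15 and 2.15 in control arrays. The difference for AT5G42290 was -3.80 ± 0.37 (adjusted p = 0.00152). In both genes only the ABA arrays stood above background. AT1G27461 and AT2G40435 had the same form, with changes of 0.21 and 0.04 with DFPM and 3.83 and 2.61 without. Their differences were -3.62 ± 0.57 (adjusted p = 0.0293) and -2.57 ± 0.28 (adjusted p = 0.00273), and the call of AT1G27461 was lost without any 1 of 8 arrays (0.0657 to 0.102).

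Other rises were reduced but not lost. AT3G17520 had levels of 9.42, 9.32 and 8.60 in ABA+DFPM and 2.21, 2.44 and 2.15 in DFPM arrays, against 11.69, 11.32 and 11.65 in ABA and 2.17, 2.15 and 2.15 in control arrays, a difference of -2.55 ± 0.32 (adjusted p = 0.00706). AT2G21820 rose by 3.26 with DFPM and 6.40 without, a difference of -3.14 ± 0.43 (adjusted p = 0.0121) that was lost without control array 2 (0.0509). AT4G34320 gave 1.08 with DFPM (adjusted p = 0.0285) and 4.77 without, a difference of -3.69 ± 0.39 (adjusted p = 0.00218). Its rise with DFPM was lost without ABA+DFPM array 2 or 3 or DFPM array 1 or 2 (0.0537 to 0.109). For AT5G02230 the means were 11.05 in ABA+DFPM and 8.41 in DFPM arrays, against 10.90 in ABA and 5.51 in control arrays. That difference of -2.75 ± 0.47 (adjusted p = 0.0434) was lost without any 1 of 10 arrays (0.0513 to 0.148).

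The positive differences among named genes were ABA falls not seen with DFPM, apart from AT2G43580, which is described after these. BCAT4 (AT3G19710), an aminotransferase of methionine-derived glucosinolate synthesis, had levels of 2.15, 2.14 and 2.15 in ABA+DFPM and 2.28, 2.15 and 2.34 in DFPM arrays, against 2.88, 2.27 and 2.32 in ABA and 6.52, 7.35 and 8.66 in control arrays. Only the control arrays stood above background, and the DFPM arrays lay at it without ABA. The difference was 4.91 ± 0.61 (adjusted p = 0.00679). AT1G14960 had means of 3.92 in ABA+DFPM and 3.87 in DFPM arrays, against 3.98 in ABA and 6.94 in control arrays, a difference of 3.02 ± 0.24 (adjusted p = 5.26e-04). AT2G10940 had means of 3.40 in ABA+DFPM and 3.23 in DFPM arrays, against 8.38 in ABA and 10.94 in control arrays, a difference of 2.73 ± 0.32 (adjusted p = 0.00393). AT5G62280, AT1G33170, AT3G21300 and AT4G20430 gave 3.19, 2.35, 2.15 and 1.70, and 3 of these 4 calls were lost without single arrays: AT5G62280 without 6 arrays in turn, AT3G21300 without 9 and AT4G20430 without ABA array 1 (0.0503 to 0.103 over all 3 genes).

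**Figure D5:**
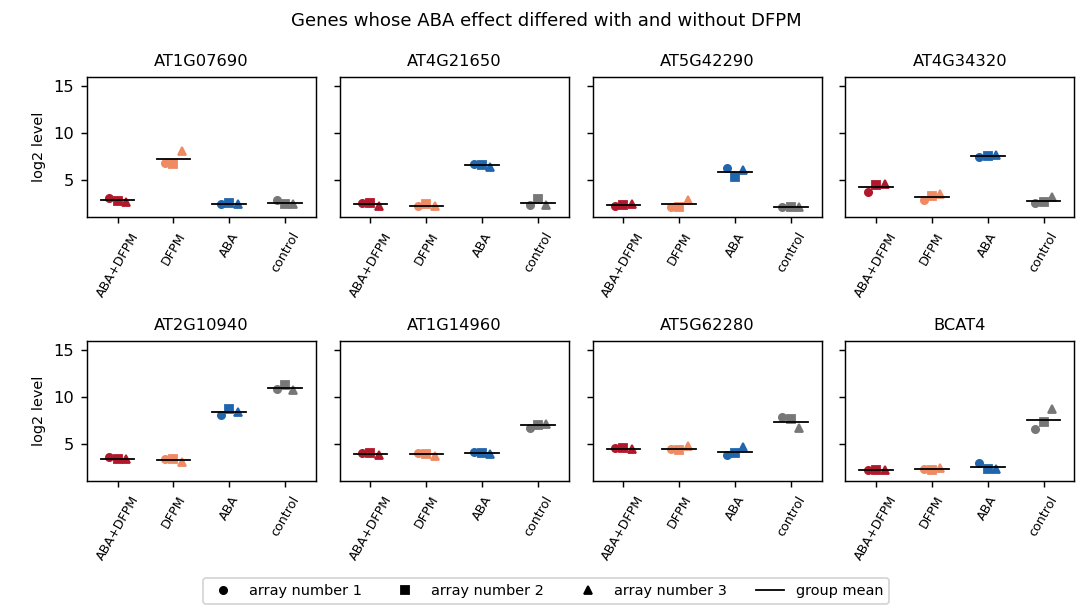
Log2 levels of 8 genes called by the interaction test, with 1 marker per array (shape gives the array number) and a bar at each group mean of 3 arrays, in the order ABA+DFPM, DFPM, ABA and control. AT4G21650 and AT5G42290 stand above background only in ABA arrays, BCAT4 and AT1G14960 are highest in control arrays, and AT1G07690 is high only in DFPM arrays, at 7.24.

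A smaller number of ABA changes were called with DFPM but not without it. There were 301 such probe sets, 291 of them with the same sign without DFPM, and the interaction test called 2 of the 301. AT1G07690 had levels of 3.10, 2.72 and 2.64 in ABA+DFPM and 6.81, 6.76 and 8.14 in DFPM arrays, against 2.43, 2.55 and 2.43 in ABA and 2.82, 2.43 and 2.42 in control arrays. Only the DFPM arrays stood above background. ABA changed it by -4.42 ± 0.34 with DFPM (adjusted p = 2.71e-05) and by -0.09 without, a difference of -4.33 ± 0.47 (adjusted p = 0.00273). AT2G43580 had levels of 4.83, 4.76 and 5.11 in ABA+DFPM and 2.16, 2.16 and 2.56 in DFPM arrays, against 2.16, 2.14 and 2.16 in ABA and 2.14, 2.14 and 2.14 in control arrays.

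AT2G43580 was thus above background only where both compounds were given, at a level near log2 5. It rose by 2.61 ± 0.17 with DFPM (adjusted p = 7.73e-06), the change without DFPM was 0.02, and the difference was 2.59 ± 0.23 (adjusted p = 0.00115). AT2G43580 was not on the chitinase list, so the counts of that list leave it out. Its neighbour in the annotation is the chitinase gene CHI, which had levels of 13.47, 13.24 and 14.21 in ABA+DFPM arrays, against 11.01, 11.08 and 12.78 in DFPM arrays. AT5G52710, not high in ABA or control arrays, had levels of 2.15, 2.15 and 4.50 in ABA+DFPM arrays, against 6.51, 6.35 and 10.40 in DFPM arrays. It fell by 4.83 ± 0.99 (adjusted p = 0.0114), a call lost without ABA+DFPM array 1 or 2 (0.0512 to 0.0548), and its difference from the change without DFPM did not pass (adjusted p = 0.344).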

How the data were processed

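Whole-seedling RNA, extracted with Trizol and RNeasy columns and labelled with biotin per the labels' protocols, was hybridised to 12 Affymetrix ATH1 arrays, 3 a group. The deposited log2 values per probe set came from GCRMA and affy as run by the authors, per the submitters' processing notes, and the version of neither is given. They run from 2.14 to 15.6, with array medians of 5.15 to 5.60, and precision is limited by how few arrays there are. Of 22810 probe sets, 64 Affymetrix controls were left out, and 14401 of 22746 were kept because at least 3 of 12 arrays reached log2 4. The platform table and RefSeq rows of assembly TAIR10.1 (names and neighbours only) named 1 gene for 13513 probe sets, 13436 of them through RefSeq, and several for 503, while 8730 are unnamed here; 7705, 310 and 6386 of these were kept.

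The comparisons used lmFit and eBayes of limma 3.58.1 (under R 4.3.3, with statmod 1.5.0) on all 12 arrays without covariates. Tests were two-sided, and the threshold was 0.05 for the Benjamini-Hochberg adjusted p. The interaction is the ABA change with DFPM minus that without. The fit was tested on simulated data first. Replicate numbers recur in all groups, and deviations from the group means correlated in all 18 same-number pairs (r from 0.426 to 0.802), so a block by number was fitted as an alternative. Numbers 1 and 2 of different groups correlated about as well (0.380 to 0.701) as 1 with 1 or 2 with 2 (0.426 to 0.725), and number 3 went against both (-0.766 to -0.432), so the block mainly separates number 3. No label says what a number marks. Alternatives were that block, only 6 arrays, no filter, a filter at log2 6, quantile normalization, eBayes with trend and robust, arrays numbered 3 left out, numbers 1 and 2 averaged with the block, and each array left out.

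Named genes were the 15 largest rises and 15 largest falls with arrays that do not overlap, up to 4 called members of each list and all measured ABA stress and LEA genes, the 10 largest ABA rises and falls, the 8 largest interaction changes each way, and markers. Members of the lists beyond these were named after their values were seen. Of genes with several probe sets, the one with the highest mean was used. The lists, members and rules were chosen with earlier results of these data known. Of 39 lists, 14 had 0 measured members and are not analysed here: core ABA signalling, ABA turnover, raffinose synthesis, lipid transfer proteins, small heat shock proteins, aquaporins, peroxidases, SAUR genes, histones, ribosomal proteins, GDSL lipases, arabinogalactan proteins, NAC factors and seed markers. Measured members are those that a kept probe set named alone, and 6386 kept probe sets are unnamed here. Such a gap therefore does not show that a gene was absent from the array or not expressed. For peroxidases, SAUR genes and histones the name search matched 0 genes at all, so these families were not assessed. Measured genes such as the peroxidase gene Prx37 lie outside those searches. Methionine-derived and indolic glucosinolate genes had 2 of 18 measured, BCAT4 and UGT74B1 (-0.25). Tables and plots were made in Python 3.11.15 (pandas 2.3.3, numpy 2.4.6, matplotlib 3.10.9).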

Additional observations from a re-analysis of the deposited data

Results flagged for a closer look

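The ABA change differed with and without DFPM, by the interaction test, for 17 named genes. Among genes that ABA raised without DFPM, the difference was -3.90 for AT4G21650, -3.80 for AT5G42290, -3.69 for AT4G34320, -3.62 for AT1G27461, -3.14 for AT2G21820, -2.75 for AT5G02230, -2.57 for AT2G40435 and -2.55 for AT3G17520. For AT1G07690, which ABA lowered with DFPM and not without, it was -4.33. Among genes that ABA lowered without DFPM and that lay close to their ABA+DFPM level in DFPM arrays, it was 4.91 for BCAT4, 3.19 for AT5G62280, 3.02 for AT1G14960, 2.73 for AT2G10940, 2.35 for AT1G33170, 2.15 for AT3G21300 and 1.70 for AT4G20430. For AT2G43580, which ABA raised with DFPM and not without, it was 2.59. All 17 calls were lost with numbers 1 and 2 averaged and the block, a setting that called 0 probe sets. Those of AT5G02230, AT3G21300, AT1G27461, AT5G62280, AT2G21820 and AT4G20430 were also lost when single arrays were left out. The explanation of these differences was not tested.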

How the results depend on the processing

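Counts of called probe sets depended on how the array numbers were treated, and directions of called values mostly did not: of the gene values recomputed, 1 called value changed sign, EXLB1 with DFPM at -0.40 without the arrays numbered 3 (adjusted p = 0.0430, against 0.02 in all arrays). Values that were not called could change sign too, such as LHCB4.1 with DFPM, at 0.01 in all arrays and -0.17 without the arrays numbered 3. Over all probe sets, number 3 gave the same sign as numbers 1 and 2 for 77.1%. With the replicate block the counts were 5069 for ABA+DFPM against DFPM, 6982 for ABA against control, 2021 raised and 2214 lowered in both, and 202 for the interaction. Without the arrays numbered 3 they were 7364, 8364, 2570, 3308 and 1251. With numbers 1 and 2 averaged and the block, the count with DFPM was 813, with 538 raised and 214 lowered in both and 0 for the interaction by limma, where 924 had an unadjusted p under 0.05, against 936 with all arrays kept apart. The 6 arrays of ABA+DFPM and DFPM alone gave 862, and the stricter filter gave 21 for the interaction. Leaving out 1 array gave 806 to 3246 with DFPM, 2402 to 4669 for ABA against control, 529 to 1257 raised and 217 to 1232 lowered in both, and 27 to 91 for the interaction. In all other settings these counts stayed within 1.5 times their value. The causes were not tested. Levels near the array background limit the folds of genes with a group mean under log2 4.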

Other observations

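Of the 2049 probe sets called between ABA+DFPM and DFPM, 1050 name 1 gene here and 999 do not. The largest rise of all was among the latter: probe set 262128_at had levels of 14.01, 13.82 and 13.91 in ABA+DFPM arrays, against 2.57, 2.63 and 4.29 in DFPM arrays, a change of 10.75 ± 0.43 (limma, adjusted p = 5.90e-07) and of 11.62 without DFPM. Probe set 247095_at rose by 9.42 ± 0.75, and 263836_at and 254410_at changed by -5.85 ± 0.51 and -5.02 ± 0.36. These probe sets were chosen after their values were seen.

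Called changes of opposite sign with and without DFPM were found for 2 probe sets, both unnamed here. Probe set 250351_at had means of 5.34 in ABA+DFPM and 7.30 in DFPM arrays, against 5.27 in ABA and 2.65 in control arrays. ABA changed it by -1.96 ± 0.55 with DFPM (adjusted p = 0.0413) and by 2.62 ± 0.55 without, and the difference of -4.58 passed the interaction test (adjusted p = 0.0434). Its means with ABA were nearly equal, and those without ABA lay on either side. Probe set 247586_at changed by 0.96 ± 0.23 with DFPM (adjusted p = 0.0245) and by -0.90 ± 0.23 without, and the difference did not pass (adjusted p = 0.0522).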
